A study of Danio rerio with 16 samples.

Results

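GFP-positive and GFP-negative cells sorted from the brains of zebrafish of the line Tg(116A:Gal4FF:UAS:GFP) were compared across all genes of the deposited count table. In this line the driver 116A directs the transcription activator Gal4FF, which switches on GFP from a UAS element, and the labels' protocols name it as the source of the caudal hypothalamic population. GFP-positive cells are called cH here and GFP-negative cells non-cH, as in the labels. These are 8 of the 16 libraries of the series, 4 of cH and 4 of non-cH cells, chosen by their labels alone. All the fish were 1 month old and carried the same transgenes, whole brains were taken, and 8 brains were pooled for each replicate. A library is therefore a pool of fish, and p-values measure the spread between 4 pools of a group. The labels do not name the cell types in which 116A is active, and they do not say whether cH and non-cH libraries of the same number came from the same brains. The comparison asks what marks the cells in which 116A is active among the remaining cells of the brain.

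The caudal hypothalamus of fish surrounds the posterior recess of the third ventricle. Its wall is lined by radial glia, which in fish persist through life, keep a process to the outer surface of the brain, and serve both as astroglia and as progenitors of neurons. Among them sit neurons that contact the cerebrospinal fluid and make serotonin, dopamine or histamine. In zebrafish, tph1a (a tryptophan hydroxylase, the first enzyme of serotonin synthesis) and th2 (a tyrosine hydroxylase paralogue) are used as markers of such cells. Ependymal cells of ventricle walls carry motile cilia, which are built under the transcription factor Foxj1.

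The label was first checked against markers. Values of a gene are given for libraries 1 to 4 of each group in that order, so the first 2 values of cH are those of cH libraries 1 and 2. tph1a stood at 360.04, 611, 38.4 and 43 CPM in cH, against 8.65, 8.12, 3.64 and 4.02 CPM in non-cH. th2 stood at 165, 574, 53.3 and 61.5 CPM in cH, against 14.3, 3.41, 2.5 and 2.24 CPM in non-cH. Both were above non-cH in every cH library, and both were far higher in cH libraries 1 and 2 than in 3 and 4. The general hypothalamic factor nkx2.1 stood at 24.3, 38.4, 8.38 and 15.23 CPM in cH, against 9.4, 16.6, 7.84 and 6.18 CPM in non-cH, and the groups overlapped (log2 fold change 1.11 ± 0.72, adjusted p = 0.471). lef1, a Wnt effector needed for neurons of the caudal hypothalamus in zebrafish, stood at 12.9, 159.6, 40.1 and 45.7 CPM in cH, against 330.2, 286, 271 and 329 CPM in non-cH, below non-cH in every cH library but short of the threshold (log2 fold change -2.23 ± 0.67, adjusted p = 0.0702). nkx2.4a, a homeobox gene of the hypothalamus, was above non-cH in every cH library and was called higher. It was named after its call was seen, and its values are given below. The homeobox genes otpa, otpb and rx3, which mark other hypothalamic neurons, were at 0 in 3 of 4 cH libraries each. In non-cH they stood at 24.1 to 47.5, 20.5 to 30.2 and 3.96 to 15 CPM. None of them was called (adjusted p = 0.522, 0.126 and 0.757). Radial glia and astroglia genes, by contrast, took 7.55% to 11.5% of all cH counts, and pan-neuronal genes were low in cH. The cells are called cH by their label, and no cell type is assigned to them. In bulk libraries, fewer cells of a type and less RNA per cell cannot be told apart, and this holds for every result below.

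Total counts were 36.4 ± 9.68 M per library in cH and 42.2 ± 3.46 M in non-cH (M, 1e+06 counts; SD, n = 4). The number of gene symbols with a count was 13441 and 13635 in cH libraries 1 and 2 and 16746 and 16839 in 3 and 4, against 18791 to 20485 in non-cH. The 10 most abundant genes summed to 19.4 ± 3.54% of cH counts and 10.4 ± 2.59% of non-cH counts, and the mitochondrial ribosomal RNA gene mt-rnr2 took 2.26% to 12.9% of cH counts and 4.16% to 9.72% of non-cH counts. Across genes, the correlation of log2 CPM was 0.545 between cH libraries 1 and 2, 0.735 between 3 and 4, and 0.559 to 0.604 between libraries of the first and the second pair. Among non-cH libraries it was 0.814 to 0.881. Between cH and non-cH libraries it was 0.467 to 0.607, a range that includes the 0.545 between cH libraries 1 and 2. cH libraries 1 and 2 thus stood apart from 3 and 4 in depth of detection, and they resembled each other no more than they resembled 3 and 4. Heat shock and stress genes took 1.76%, 1.92%, 0.799% and 0.896% of counts in cH libraries 1 to 4, against 1.79%, 1.59%, 0.803% and 0.833% in non-cH. Libraries numbered 1 and 2 were the higher ones in both groups. The part of this in the results below was not tested. The labels give no reason for the split, so the values of the 2 pairs are given side by side and are not tested against each other.

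Of 17228 genes tested, 2055 passed at an adjusted p under 0.05 (11.9%), 871 of them higher in cH (5.06%) and 1184 lower (6.87%). Counts of called members of the lists below are to be read beside these shares of 5.06% and 6.87%. List medians cover only the members that passed the filter on low counts. Some of these medians changed in size or sign with a pair of cH libraries set aside. With cH libraries 1 and 2 set aside, 1502 genes were higher (7.62%) and 2215 lower (11.2%). With 3 and 4 set aside, 844 were higher (4.35%) and 2769 lower (14.3%). Adjusted p-values are those of edgeR's quasi-likelihood test with Benjamini-Hochberg adjustment over all genes tested. Levels are in CPM (counts scaled to 1e+06 per library). Values after ± are SD over 4 libraries for CPM, and fold changes are cH over non-cH. For log2 fold changes the value after ± is an approximate SE, the size of the log2 fold change over the square root of the test's F statistic. Near 0 counts it does not cover the full uncertainty. For uncx4.1, at -11.67 ± 1.2, fits with 1 library left out ran from -14.81 to -11.27. The median log2 fold change was -0.20 over all genes tested and 2.39 over those called higher. Over those called lower it was -8.45, or -6.35 with genes at 0 in a whole group placed at their lower bound, and 535 of the 1184 had no count in any cH library. Such bounds set the group without counts at 3 counts over its 4 libraries. They cover counting error only, not the spread between libraries, here and wherever a fall or rise is given as at least a fold. Of all genes tested, 1131 were at 0 in cH libraries 1 and 2 and seen in both 3 and 4, and 115 the reverse. A gene without counts in cH passes the filter on low counts through non-cH alone, so it can only be called lower. This holds for such members in every list below. A gene without counts in non-cH passes through cH alone and can only be called higher, as held for 5 of the 871. Without regard to the test, 1556 genes had all cH libraries above all non-cH libraries (9.03%) and 3245 had them all below (18.8%). The groups did not overlap for 857 of the 871 genes called higher and 1183 of the 1184 called lower. For a called gene, lack of overlap therefore adds little to the call. Every gene named below whose groups do not overlap has an exact two-sided permutation p of 0.0286, the smallest that 4 against 4 allow. Of the 871 genes called higher, 157 had cH libraries 1 and 2 both above 3 and 4, and 278 had them both below. Over all 17228 genes tested these counts were 2277 and 4393. Among fits with 1 library left out, the number of calls was lowest without non-cH library 2, 3 or 4, at 810, 874 and 770. It was 1762 without non-cH library 1 and 2212 to 2684 without any 1 cH library.

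Radial glia and astroglia genes had the largest share of members called higher among the lists examined: 25 of 38 tested members (65.8%) were higher in cH and 1 was lower, with a median log2 fold change of 2.54 and 46 members in all. The list took 9.49%, 7.55%, 11.5% and 10.8% of counts in the cH libraries, against 0.584% to 1.52% in non-cH. All 4 cH libraries were far above all non-cH libraries, and here the pairs of cH libraries lay close to each other. Most of the cH share was slc1a2b and glula. slc1a2b, the glial glutamate transporter that clears glutamate from synapses, stood at 35309, 23508, 48683 and 35814 CPM in cH, against 923, 899, 3425 and 2623 CPM in non-cH (log2 fold change 4.19 ± 0.53, adjusted p = 0.00296). glula, the glutamine synthetase that turns that glutamate into glutamine, stood at 30026, 13794, 27321 and 24575 CPM in cH, against 1295, 1210.5, 3359 and 2104 CPM in non-cH (log2 fold change 3.59 ± 0.41, adjusted p = 0.00207). Together these transcripts are the core of the glial glutamate cycle, and each was several times above non-cH in every cH library. gfap, the intermediate filament gene of astroglia, stood at 349, 229, 167 and 148 CPM in cH, against 14.4, 6.1, 35.8 and 21.6 CPM in non-cH (log2 fold change 3.52 ± 0.57, adjusted p = 0.00794). fabp7a, the brain lipid binding protein of radial glia, stood at 5819, 8028, 9253 and 16568 CPM in cH, against 531, 624, 1595 and 759 CPM in non-cH (log2 fold change 3.5 ± 0.47, adjusted p = 0.00377). Among factors that keep radial glia in their state, sox9a averaged 292 ± 47.1 CPM in cH and 37.4 ± 9.57 CPM in non-cH (log2 fold change 2.97 ± 0.26, adjusted p = 0.000906). msi1, an RNA binding protein of neural stem cells, averaged 322 ± 51.8 CPM in cH and 57.5 ± 5.34 CPM in non-cH (log2 fold change 2.49 ± 0.20, adjusted p = 0.000813). Other members called higher, named after their calls were seen, include slc1a3b, cx43, s100b, sox2, sox3, id1, id2a, id3, mlc1 and hepacama. The member called lower was ednraa, an endothelin receptor gene. With cH libraries 1 and 2 set aside 26 members were higher and 3 lower, and with 3 and 4 set aside 26 and 1.

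**Figure D1:**
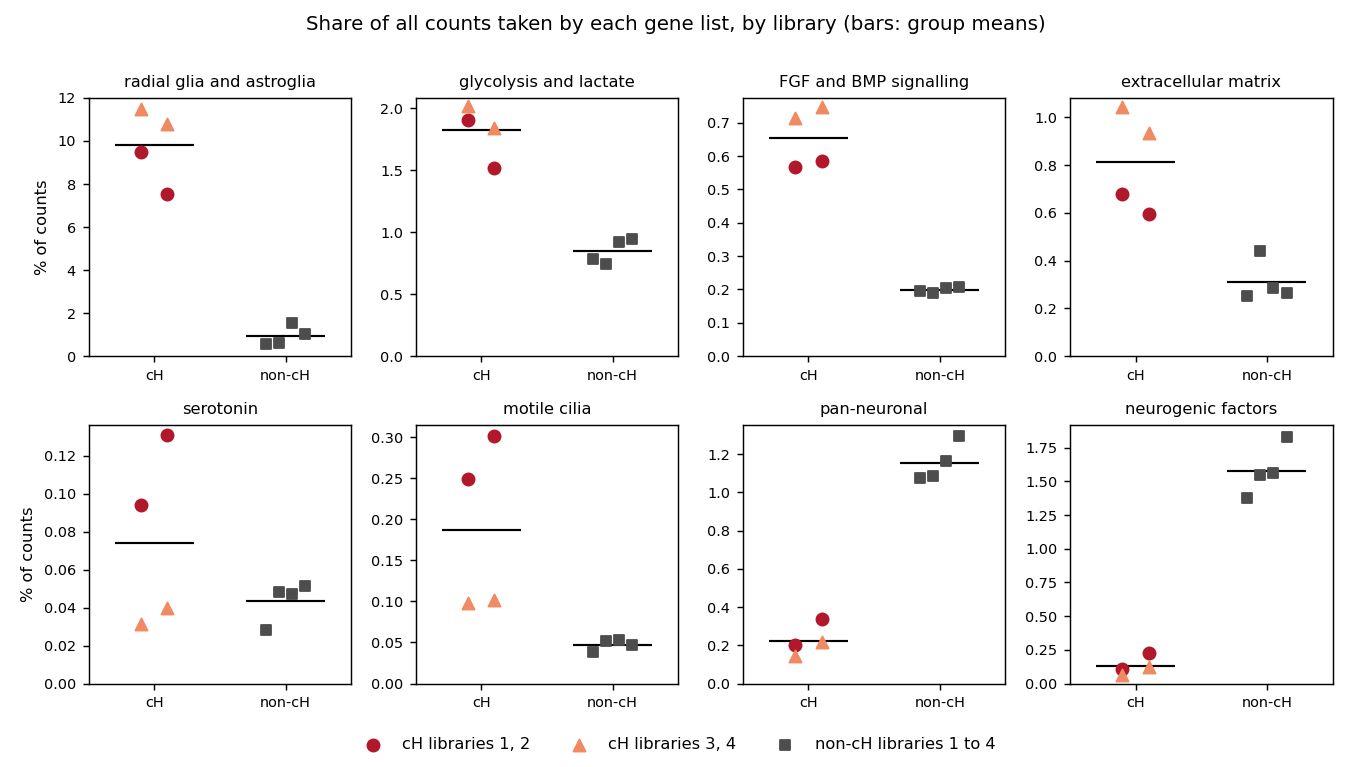
Share of all counts of a library (%) taken by 8 gene lists, with cH libraries 1 and 2, cH libraries 3 and 4 and the 4 non-cH libraries as separate points and group means as bars. Radial glia genes took 7.55% to 11.5% in cH against 0.584% to 1.52% in non-cH, pan-neuronal genes ran the other way, and serotonin and cilia genes were highest in cH libraries 1 and 2.

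Transporter genes were called in both directions, with transmitter transporters of glia among the higher ones. In the list of ion, water and solute transport, 110 of 188 members were tested, 13 higher and 12 lower in cH, with a median log2 fold change of -0.49. It took 5.12%, 4.19%, 6.57% and 5.53% of counts in the cH libraries, against 0.805% to 1.28% in non-cH. Most of the cH share, but not of the non-cH share, was slc1a2b, given above with the radial glia and astroglia genes. The GABA transporter gene slc6a11b stood at 1630.5, 1015, 1129 and 1069.7 CPM in cH, against 42, 36.6, 174 and 105 CPM in non-cH (log2 fold change 3.76 ± 0.54, adjusted p = 0.00487). slc6a1b, another GABA transporter gene, stood at 3797, 1509, 1736 and 1619 CPM in cH, against 291, 226, 588 and 479.9 CPM in non-cH (log2 fold change 2.45 ± 0.42, adjusted p = 0.00991). The glycine transporter gene slc6a9 stood at 1230.5, 531, 231 and 237 CPM in cH, against 57.2, 49.5, 114 and 99.1 CPM in non-cH (log2 fold change 2.8 ± 0.61, adjusted p = 0.0194). aqp1a.1, a water channel gene, stood at 724, 450.3, 209 and 263 CPM in cH, against 49.96, 64.6, 118 and 53.3 CPM in non-cH (log2 fold change 2.53 ± 0.47, adjusted p = 0.0128). All 4 transporter genes were above non-cH in every cH library, and slc6a9 and aqp1a.1 were highest in libraries 1 and 2. The call of slc6a9 ended without any 1 of the non-cH libraries (highest adjusted p 0.0649). That of aqp1a.1 ended without non-cH library 2 or 4 (0.0527). Among members called lower, slc38a2, an amino acid transporter gene, averaged 98.3 ± 15.5 CPM in cH and 396 ± 32.1 CPM in non-cH (log2 fold change -2.01 ± 0.18, adjusted p = 0.00101). slc4a1a, the anion exchanger of red blood cells, had 2 counts over cH, against 24230 over non-cH. With cH libraries 1 and 2 set aside 15 and 22 were higher and lower, and with 3 and 4 set aside 13 and 26. The carbonic anhydrase gene cahz, placed in the erythrocyte list, averaged 924 ± 78.4 CPM in cH and 459.6 ± 91.3 CPM in non-cH (log2 fold change 1.01 ± 0.18, adjusted p = 0.0113).

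Of the glycolytic enzyme genes called, most were higher. In the list of glycolysis, lactate and glycogen, 34 of 45 members were tested, 13 higher and 4 lower in cH, with a median log2 fold change of 0.88. It took 1.91%, 1.52%, 2.02% and 1.84% of counts in the cH libraries, against 0.745% to 0.942% in non-cH. aldocb, the brain aldolase, stood at 6137, 3931, 5823 and 5105 CPM in cH, against 1212, 959, 1426 and 1490.5 CPM in non-cH (log2 fold change 2.05 ± 0.21, adjusted p = 0.00132). pfklb, a phosphofructokinase, averaged 237 ± 84.7 CPM in cH and 25.1 ± 5.95 CPM in non-cH (log2 fold change 3.24 ± 0.36, adjusted p = 0.0018). gapdhs, a glyceraldehyde phosphate dehydrogenase, averaged 5869.5 ± 1118 CPM in cH and 2293 ± 232 CPM in non-cH (log2 fold change 1.36 ± 0.18, adjusted p = 0.00319). The other members called higher, named after their calls were seen, were gpia, tpi1a, pgk1, pgam1a, eno1b, eno3, pkma, ldha and the glycogen phosphorylases pygmb and pygb. Those called lower were aldoab, aldoca, gapdh and ldhba, so paralogues of aldolase, glyceraldehyde phosphate dehydrogenase and lactate dehydrogenase were called in both directions. Of these 4 lower members, 3 had no count in cH and could only be called lower. Nuclear genes of oxidative phosphorylation showed 1 higher and 0 lower of 81 tested, with 96 members in all and a median log2 fold change of 0.40. The share called higher was 1.23%, against 5.06% of all genes tested. The call was cox4i2, a cytochrome oxidase subunit isoform, at 279.8 ± 46.1 CPM in cH and 50.4 ± 10.7 CPM in non-cH (log2 fold change 2.47 ± 0.24, adjusted p = 0.00119).

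Of lipid genes, the fatty acid list had 7 higher and 5 lower of 49 tested, with 61 members in all and a median log2 fold change of 0.39. The members called higher include acadl, acadvl, acads and hadhaa of mitochondrial oxidation, named after their calls were seen. scdb, a fatty acid desaturase, was lower, at 60.6 ± 11.4 CPM in cH and 208 ± 23.1 CPM in non-cH (log2 fold change -1.78 ± 0.22, adjusted p = 0.00251). The cholesterol list had 5 higher and 0 lower of 37 tested, with 39 members in all and a median log2 fold change of 0.92. It took 0.196%, 0.278%, 0.504% and 0.498% of counts in the cH libraries, against 0.212% to 0.284% in non-cH, so the excess over non-cH stood in cH libraries 3 and 4. sc5d, of the last steps of cholesterol synthesis, stood at 90.6, 104, 262 and 219 CPM in cH, against 27.7, 33, 56.9 and 37.3 CPM in non-cH (log2 fold change 2.12 ± 0.43, adjusted p = 0.0153). lrp2a, the receptor megalin, stood at 69.3, 73.7, 128 and 157 CPM in cH, against 26.9, 15.3, 18.7 and 23.3 CPM in non-cH (log2 fold change 2.35 ± 0.39, adjusted p = 0.00814). abca1a, a cholesterol exporter, stood at 110.2, 204, 239.9 and 170.4 CPM in cH, against 108, 71.6, 54.9 and 72.2 CPM in non-cH (log2 fold change 1.24 ± 0.32, adjusted p = 0.0362). All 3 genes were lowest in cH library 1 among the cH libraries. The count of higher cholesterol genes was 14 with cH libraries 1 and 2 set aside and 2 with 3 and 4 set aside. For fatty acid genes the counts of higher and lower genes were 12 and 8 with cH libraries 1 and 2 set aside and 6 and 9 with 3 and 4 set aside. The call of sc5d ended without non-cH library 2 or 4 (highest adjusted p 0.0548) and that of abca1a without cH library 2, 3 or 4 or non-cH library 2, 3 or 4 (0.109).

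Tanycytes are radial glia of the hypothalamus that handle thyroid hormone, and in their list 19 of 25 members were tested, 5 higher and 1 lower in cH, with a median log2 fold change of 1.09. ptgdsb.2, a prostaglandin D synthase of the lipocalin family, stood at 1095, 746, 720.1 and 602 CPM in cH, against 43.4, 38.4, 142 and 66.7 CPM in non-cH (log2 fold change 3.44 ± 0.47, adjusted p = 0.00395). It was above non-cH in every cH library and highest in cH library 1. Of the deiodinases, dio2, which activates thyroid hormone, stood at 126, 34.9, 100.3 and 80.7 CPM in cH, against 5.29, 1.58, 36 and 17 CPM in non-cH, and cH library 2 lay below non-cH library 3 (adjusted p = 0.136). dio3b, which inactivates it, stood at 11.5, 51.7, 8.73 and 5.67 CPM in cH, against 8.98, 11.2, 8.4 and 7.73 CPM in non-cH (adjusted p = 0.574). The list had 4 members lower in each fit with a pair of cH libraries set aside, and 5 higher in both.

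Receptors and feedback inhibitors were among the FGF and BMP signalling genes called higher: in this list 53 of 88 members were tested, 15 higher and 5 lower in cH, with a median log2 fold change of 1.18. fgfr2 stood at 1411, 1434, 2409 and 2157 CPM in cH, against 71.7, 83.4, 90.1 and 89.6 CPM in non-cH (log2 fold change 4.47 ± 0.25, adjusted p = 0.000228). fgfr3 stood at 584, 644, 958 and 817 CPM in cH, against 108, 94, 118 and 116 CPM in non-cH (log2 fold change 2.78 ± 0.21, adjusted p = 0.000813). spry2, an inhibitor of the pathway that FGF signals induce, stood at 1364, 764, 1696 and 1949 CPM in cH, against 48.1, 78.7, 122 and 102 CPM in non-cH (log2 fold change 4.04 ± 0.40, adjusted p = 0.00129). All 4 cH libraries lay far above the non-cH range for these 3 genes, and fgfr2 and fgfr3 were higher in libraries 3 and 4 than in 1 and 2. The other members called higher, named after their calls were seen, include fgfr1b, the feedback genes spry1, spry4, dusp6 and il17rd, the transcription factor etv5b, the BMP receptor bmpr1ab, its effector smad5 and the antagonist nog2. Those called lower were the ligand genes fgf1a and fgf6a, the intracellular fgf11b and fgf13a, and the antagonist nog3. Of these 5, 4 had no count in cH. gdf10b, a TGF-beta family ligand with one of the largest rises, stood at 165, 401, 568 and 554 CPM in cH, against 7.58, 4.67, 2.94 and 12.4 CPM in non-cH (log2 fold change 5.94 ± 0.64, adjusted p = 0.00155). The list had 17 higher and 9 lower with cH libraries 1 and 2 set aside, and 12 and 2 with libraries 3 and 4 set aside. Its median log2 fold change was 0.21 and 0.24 in these fits, with 62 and 61 members tested.

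In the Hedgehog list 16 of 19 members were tested, 5 higher and 0 lower in cH, with a median log2 fold change of 1.66. The co-receptor gene boc stood at 353, 450.1, 648 and 642 CPM in cH, against 154, 84.5, 141 and 125 CPM in non-cH (log2 fold change 2.05 ± 0.28, adjusted p = 0.004). gas1b, another co-receptor gene, stood at 256, 88.7, 295 and 283 CPM in cH, against 15.3, 14.5, 53.6 and 24.7 CPM in non-cH (log2 fold change 3.09 ± 0.57, adjusted p = 0.0124). Its paralogue gas1a averaged 89.7 ± 27 CPM in cH and 32.6 ± 4.75 CPM in non-cH (log2 fold change 1.46 ± 0.32, adjusted p = 0.0189). smo, the signal transducer, and sufu, an inhibitor, were also called higher and were named after their calls were seen. gas1b was lowest in cH library 2, and its call ended without non-cH library 4 (highest adjusted p 0.0527). That of gas1a ended without any 1 of the non-cH libraries (0.0645). The list had 6 higher and 0 lower with cH libraries 1 and 2 set aside, and 2 and 0 with libraries 3 and 4 set aside.

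Notch genes had 8 higher (21.6%) and 2 lower (5.41%) of 37 tested, with 40 members in all and a median log2 fold change of 0.13. Of all genes tested 5.06% were higher and 6.87% lower, so the lower share was under that of all genes. Of the 2 lower members, 1 had no count in cH. The receptor gene notch3 stood at 557, 284, 891 and 1031 CPM in cH, against 48.1, 81.8, 57.2 and 108 CPM in non-cH (log2 fold change 3.23 ± 0.46, adjusted p = 0.00454). hey1, a transcriptional repressor induced by Notch, stood at 294, 153, 353 and 157 CPM in cH, against 4.58, 9.51, 29.7 and 18.2 CPM in non-cH (log2 fold change 3.95 ± 0.64, adjusted p = 0.00749). lfng, a glycosyltransferase that modifies Notch receptors, stood at 722, 523, 693 and 631 CPM in cH, against 176, 199, 253 and 275 CPM in non-cH (log2 fold change 1.51 ± 0.20, adjusted p = 0.00351). The 3 genes were above non-cH in every cH library, and library 2 was lowest for each. The other members called higher, named after their calls were seen, were jag1b, her4.4, her8a, hey2 and nrarpa, and those called lower were hes2.2 and rbpjb. The Notch target her4.2 stood at 171, 71.4, 206 and 84.7 CPM in cH, against 70.96, 122, 67.5 and 79.1 CPM in non-cH, with overlap (adjusted p = 0.438), and the her4.1 symbol matched the row her4.3 through a synonym, at an adjusted p of 0.0779. The counts of higher and lower Notch genes were 9 and 5 with cH libraries 1 and 2 set aside and 4 and 6 with 3 and 4 set aside.

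In the Wnt list 50 of 74 members were tested, 6 higher and 5 lower in cH, with a median log2 fold change of 0.67. wnt7aa, a ligand gene, stood at 246, 152, 274 and 312 CPM in cH, against 42.4, 21.4, 34.1 and 19 CPM in non-cH (log2 fold change 3.07 ± 0.37, adjusted p = 0.00234). wnt16, another ligand gene, stood at 93, 44.4, 96 and 132 CPM in cH, against 6.36, 3.03, 6.86 and 4.24 CPM in non-cH (log2 fold change 4.15 ± 0.51, adjusted p = 0.00239). Both were above the non-cH range in every cH library and lowest in library 2. wnt7bb, the receptors fzd6 and fzd10 and the effector tcf7 were also called higher, and wnt1, wnt6a, wnt7ba and tcf7l2 lower, all named after their calls were seen. frzb, a secreted Wnt antagonist, had no count in cH, against 43.8, 44.9, 26.1 and 44.3 CPM in non-cH. This was at least 1810.0-fold lower. Of the 5 Wnt members called lower, 4 had no count in cH. The list's lower calls were 8 with cH libraries 1 and 2 set aside and 7 with 3 and 4 set aside.

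Matrix and adhesion genes followed. In the extracellular matrix list 77 of 121 members were tested, 12 higher and 7 lower in cH, with a median log2 fold change of 0.81. It took 0.678%, 0.593%, 1.04% and 0.934% of counts in the cH libraries, against 0.25% to 0.441% in non-cH. bcan, the brain proteoglycan brevican, stood at 2046, 1543, 3338 and 2596 CPM in cH, against 109, 93.4, 196 and 170.2 CPM in non-cH (log2 fold change 4.07 ± 0.36, adjusted p = 0.000981). sparcl1, a matrix protein that astroglia secrete in mammals, stood at 140.2, 177, 207 and 153 CPM in cH, against 22, 7.76, 18.2 and 11.2 CPM in non-cH (log2 fold change 3.51 ± 0.39, adjusted p = 0.0018). col25a1, a membrane collagen, stood at 154, 173, 361 and 329 CPM in cH, against 11.4, 14.4, 19.9 and 32.2 CPM in non-cH (log2 fold change 3.71 ± 0.46, adjusted p = 0.00285). Of these, bcan and col25a1 were higher in cH libraries 3 and 4 than in 1 and 2. The fibrillar collagen gene col1a2 had 6 counts over cH, against 53506 over non-cH, where library 2 held 988 CPM and the others 26.4 to 89.1. The basement membrane genes lamb2l, lamc3, lama4 and hspg2 were called higher and nid1a, nid1b and lama2 lower, named after their calls were seen. Of the 7 members called lower, 4 had no count in cH. With cH libraries 1 and 2 set aside the list had 19 higher members, and with 3 and 4 set aside 9 higher and 13 lower. Its median log2 fold change was 0.11 and -0.49 in these fits, with 98 members tested in each.

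In the list of actin cytoskeleton, junctions and adhesion, 77 of 113 members were tested, 12 higher and 6 lower in cH, with a median log2 fold change of 0.28. anxa13, an annexin, stood at 565, 462, 586 and 385 CPM in cH, against 71.3, 93, 94.6 and 99.5 CPM in non-cH (log2 fold change 2.48 ± 0.21, adjusted p = 0.000893). cdh11, a cadherin, stood at 620.4, 458, 596 and 662 CPM in cH, against 116, 128, 163 and 158 CPM in non-cH (log2 fold change 2.05 ± 0.20, adjusted p = 0.00116). tagln3b, of the transgelin family of actin binding proteins, averaged 98.2 ± 8.57 CPM in cH and 15.9 ± 3.72 CPM in non-cH (log2 fold change 2.63 ± 0.32, adjusted p = 0.00244). These genes had close values in all 4 cH libraries. The lower members include cdh2 (N-cadherin) and tpm1, named after their calls were seen. The counts of higher and lower genes were 19 and 9 with cH libraries 1 and 2 set aside and 12 and 14 with 3 and 4 set aside. Among axon guidance genes there were 12 higher and 6 lower of 107 tested, with 109 members in all and a median log2 fold change of -0.32. ntn1b, a netrin, stood at 459.8, 359.6, 886 and 341 CPM in cH, against 14, 12.4, 23.5 and 32 CPM in non-cH (log2 fold change 4.64 ± 0.48, adjusted p = 0.0014). chl1b, a cell adhesion protein of the L1 family, averaged 691 ± 86.4 CPM in cH and 181 ± 55.6 CPM in non-cH (log2 fold change 1.93 ± 0.24, adjusted p = 0.00291). The ephrin gene efna1a averaged 233 ± 29.9 CPM in cH and 63.1 ± 17.7 CPM in non-cH (log2 fold change 1.89 ± 0.27, adjusted p = 0.00431). slit2, sema3aa, sema3ab and the ephrin receptors epha3 and epha4b were also called higher, and nrp2a, sema3e and ephb3a lower, named after their calls were seen. Axon guidance genes took 0.693% to 0.751% of cH counts and 0.632% to 0.757% of non-cH counts, so the cH shares lay within the non-cH range. Of the 6 members called lower, 4 had no count in cH. The counts of higher and lower genes were 19 and 24 with cH libraries 1 and 2 set aside and 7 and 16 with 3 and 4 set aside.

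**Figure D2:**
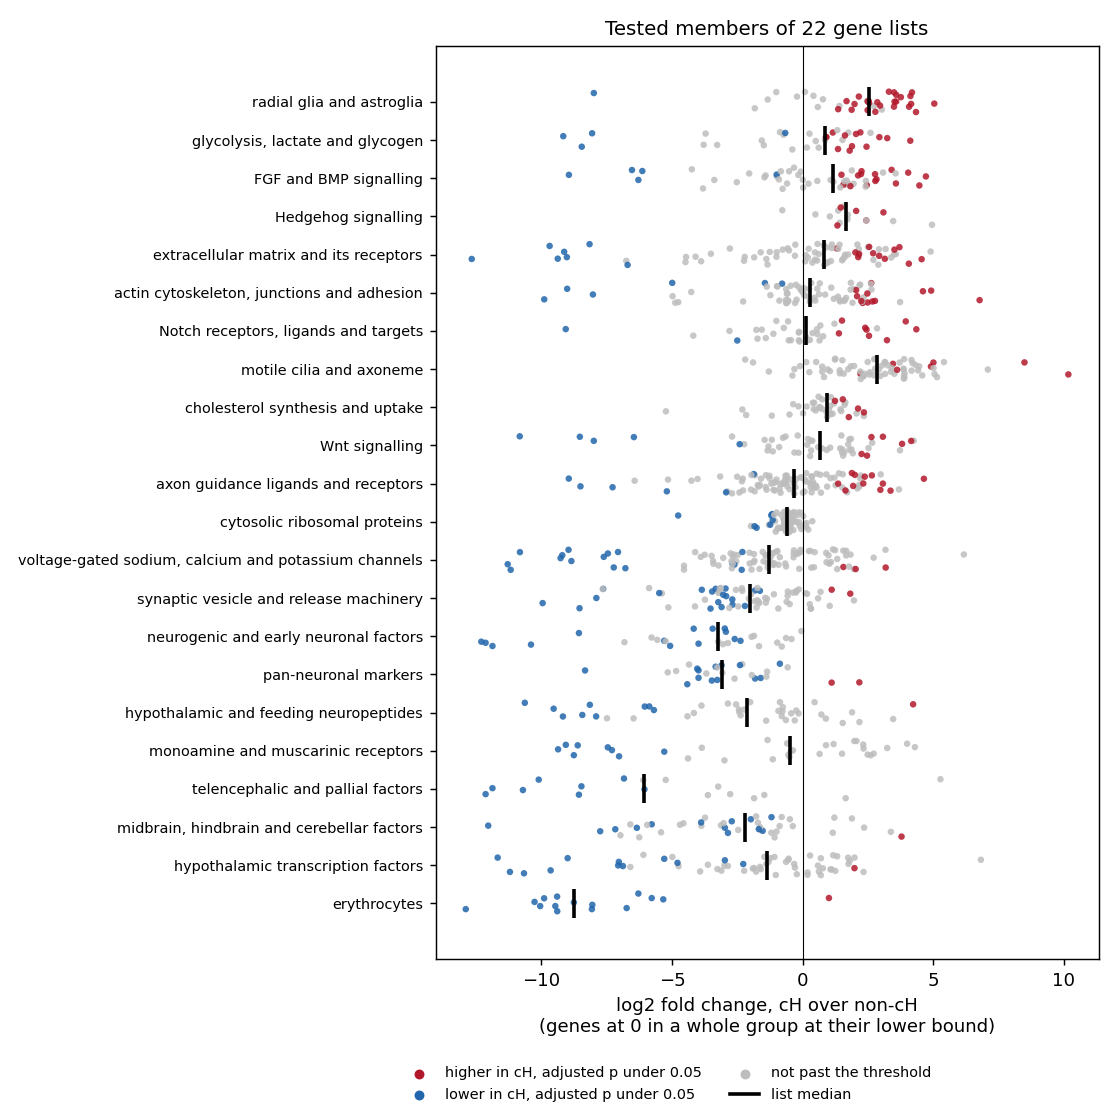
Log2 fold change (cH over non-cH) of every tested member of 22 gene lists, 1 row per list, with a black bar at the list's median. Red points passed the test as higher, blue points as lower and grey points did not pass; radial glia genes lie mostly to the right at a median of 2.54, and neurogenic, pan-neuronal and erythrocyte genes to the left.

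Of the genes of serotonin synthesis, storage and breakdown, tph1a, gch1, slc18a2 and mao were called higher in cH, and most of the others were not called. In the list of serotonin synthesis, storage, uptake and breakdown, 17 of 23 members were tested, 4 higher and 1 lower in cH, with a median log2 fold change of 0.82. It took 0.0942%, 0.131%, 0.0315% and 0.0396% of counts in the cH libraries, against 0.0281% to 0.0512% in non-cH. The excess over non-cH therefore stood in cH libraries 1 and 2, while libraries 3 and 4 lay within the non-cH range. tph1a, with the values given above, had a log2 fold change of 5.43 ± 1.04 (adjusted p = 0.0134). Its call ended without non-cH library 2, 3 or 4 (highest adjusted p 0.0527). gch1, which makes the cofactor of the hydroxylases, stood at 83.2, 98.5, 21.4 and 59.7 CPM in cH, against 4.82, 8.65, 2.003 and 7.47 CPM in non-cH (log2 fold change 3.52 ± 0.69, adjusted p = 0.0139; 0.0527 without non-cH library 4). slc18a2, the vesicular monoamine transporter, stood at 23.7, 28.7, 4.69 and 7.9 CPM in cH, against 0.444, 0.149, 1.09 and 1.22 CPM in non-cH (log2 fold change 4.48 ± 1.16, adjusted p = 0.0379). mao, monoamine oxidase, stood at 502, 317, 193 and 187 CPM in cH, against 29, 36.2, 62 and 42.7 CPM in non-cH (log2 fold change 2.82 ± 0.41, adjusted p = 0.00504). All 3 genes were above non-cH in every cH library, and the highest 2 values were those of cH libraries 1 and 2. The call of slc18a2 ended without any 1 of the 6 libraries cH 1, cH 2 and non-cH 1 to 4 (highest adjusted p 0.113), and its adjusted p was 0.1105 with cH libraries 1 and 2 set aside. ddc, the decarboxylase of serotonin and dopamine synthesis, stood at 35.9, 103, 11.7 and 19 CPM in cH, against 13.2, 5.93, 5.36 and 6.25 CPM in non-cH, with cH library 3 below non-cH library 1 (adjusted p = 0.096).

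The serotonin transporter gene slc6a4b stood at 26.2, 11.7, 3.69 and 19.4 CPM in cH, against 0, 1.3, 0 and 0 CPM in non-cH, above non-cH in every cH library, but did not pass (adjusted p = 0.212). Its paralogue slc6a4a was at 1.5, 0, 0.552 and 0.685 CPM in cH, against 0, 3.94, 2.79 and 1.04 CPM in non-cH. The other hydroxylase genes were seen in few cH libraries. tph1b was at 0, 24.6, 0.0345 and 0 CPM in cH, against 0, 0.703, 2.02 and 1.45 CPM in non-cH. tph2 was at 0, 0, 0 and 4.001 CPM in cH, against 0, 8.27, 9.58 and 0.737 CPM in non-cH. gata2a, a transcription factor needed for serotonergic neurons in mouse, had no count in cH, against 47.3, 46.6, 44 and 76.7 CPM in non-cH. The fall was at least 2411-fold. In the catecholamine and histamine list 8 of 13 members were tested, 1 higher and 0 lower in cH, with a median log2 fold change of -0.50. The call was th2, with a log2 fold change of 5.25 ± 1.09 (adjusted p = 0.0163), which ended without non-cH library 2, 3 or 4 (highest adjusted p 0.0576). Its paralogue th had 0 counts in all 4 cH libraries and 287 in non-cH and did not pass the filter on low counts. hdc, which makes histamine, was at 0, 12.2, 0.172 and 0 CPM in cH, against 10.3, 3.52, 7.23 and 4.09 CPM in non-cH. The list took 0.0292%, 0.0806%, 0.0119% and 0.0106% of counts in the cH libraries, against 0.0122% to 0.0161% in non-cH, and cH library 2 was the highest. Markers of neurons that contact the cerebrospinal fluid had 0 higher and 2 lower of 12 tested, with 14 members in all and a median log2 fold change of -1.77. The 2 lower members were gata2a and sst1.2, which had no count in cH and could only be called lower. They are also the lower calls of the serotonin list and of the growth hormone and IGF list. pkd2l1, a channel of such cells in the spinal cord, was at 0 in cH and at 0, 0.0426, 1.35 and 0 CPM in non-cH. The groups overlapped for pkd2l1, and it did not pass the filter on low counts.

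The granin gene chgb was the member called higher in both the neuropeptide and the prohormone processing list. It encodes a core protein of dense-core vesicles and stood at 369, 650.5, 94.9 and 164 CPM in cH, against 25.4, 19, 10.2 and 13.5 CPM in non-cH (log2 fold change 4.23 ± 0.66, adjusted p = 0.00674), and again libraries 1 and 2 were the highest. In the prohormone processing list 14 of 15 members were tested, 1 higher and 1 lower in cH, with a median log2 fold change of -0.92. The list had 7.14% of its tested members called in each direction, against 5.06% higher and 6.87% lower of all genes tested. It took 0.115%, 0.235%, 0.0528% and 0.048% of counts in the cH libraries, against 0.189% to 0.213% in non-cH. cadpsb, which primes dense-core vesicles for release, stood at 43.6, 8.1, 19.4 and 5.73 CPM in cH, against 161, 194, 263 and 229 CPM in non-cH (log2 fold change -3.46 ± 0.66, adjusted p = 0.013). The list's lower calls were 7 with cH libraries 1 and 2 set aside and 2 with 3 and 4 set aside.

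**Figure D3:**
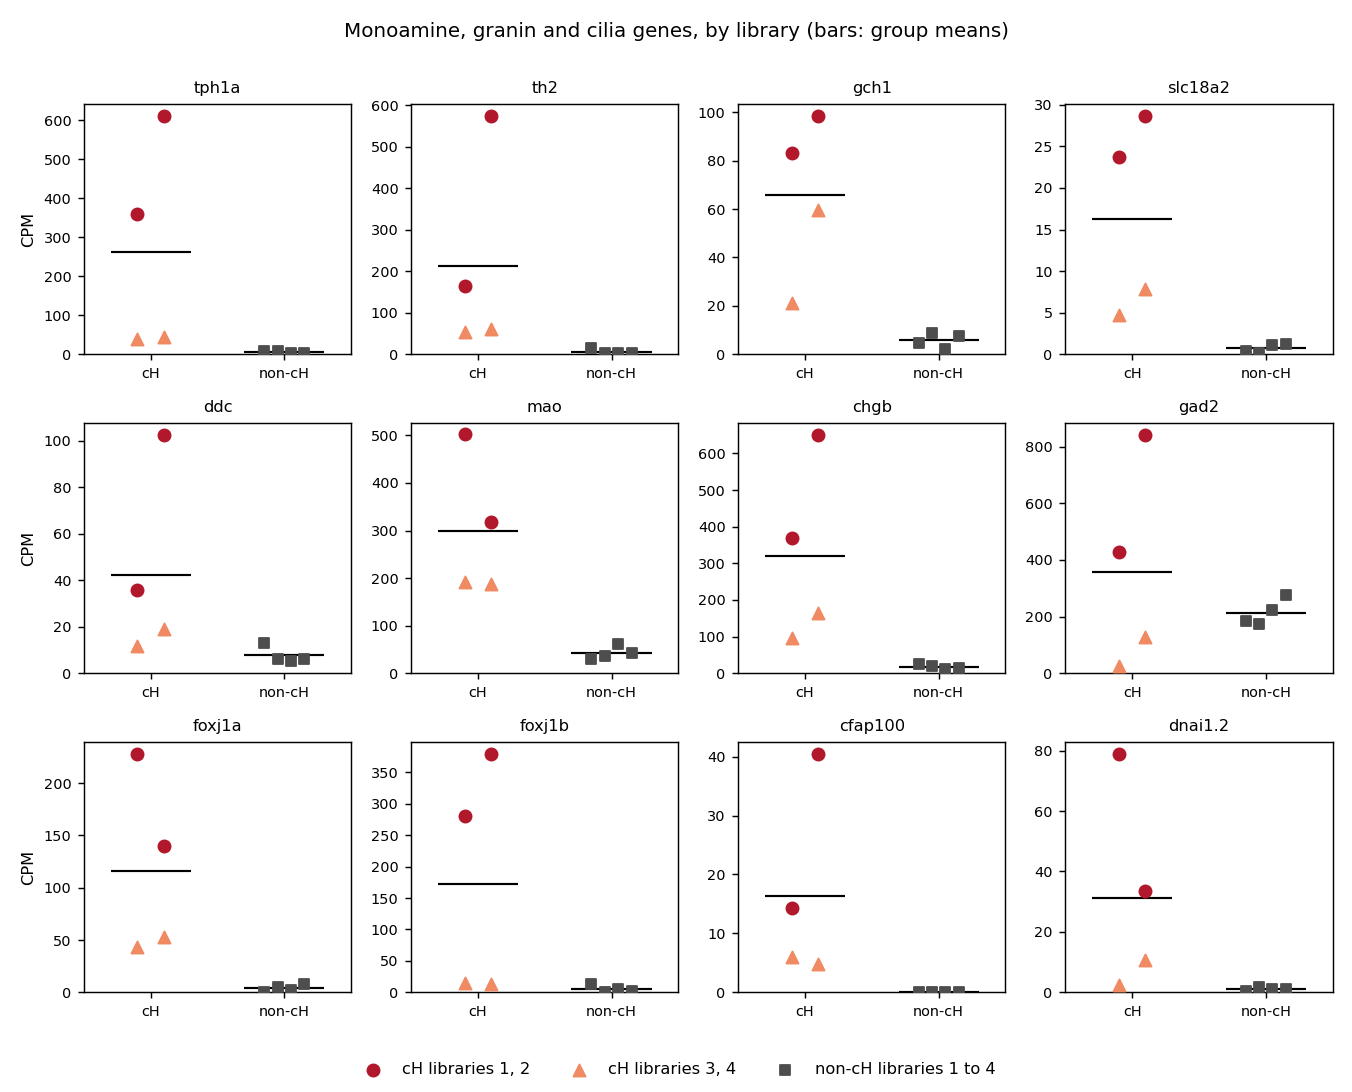
CPM of 12 monoamine, granin and cilia genes in each library, with cH libraries 1 and 2 (circles), cH libraries 3 and 4 (triangles) and non-cH libraries (squares), and group means as bars. For tph1a the cH libraries stood at 360, 611, 38.4 and 43 CPM against at most 8.65 CPM in non-cH, and in most panels cH libraries 1 and 2 are the highest.

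Motile cilia genes had a high median: 72 of 103 members were tested, 7 higher and 0 lower in cH, with a median log2 fold change of 2.85. The share called higher was 9.72%, against 5.06% of all genes tested. The list took 0.249%, 0.301%, 0.0974% and 0.101% of counts in the cH libraries, against 0.038% to 0.0526% in non-cH, so both pairs of cH libraries were above the non-cH range, libraries 1 and 2 the most. In this list 38 of its 103 members had both cH libraries 1 and 2 above both 3 and 4, and 9 the reverse. Over all 17228 genes tested the counts were 2277 and 4393. foxj1a, the regulator of motile ciliogenesis, stood at 228, 140.4, 43.2 and 53.3 CPM in cH, against 0.0444, 4.69, 2.2 and 7.52 CPM in non-cH (log2 fold change 5.01 ± 1.28, adjusted p = 0.0374). Its paralogue foxj1b stood at 281, 379, 14.5 and 13.5 CPM in cH, against 13.1, 0.938, 5.22 and 1.47 CPM in non-cH (log2 fold change 5.05 ± 1.44, adjusted p = 0.0589), and cH libraries 3 and 4 lay close to non-cH library 1. rfx2, a partner of Foxj1, stood at 229, 242, 215 and 99.5 CPM in cH, against 24.4, 57.2, 50.1 and 37.5 CPM in non-cH (log2 fold change 2.21 ± 0.38, adjusted p = 0.0101). rfx4, a factor of the same family, stood at 94.4, 60.1, 158 and 108 CPM in cH, against 9.27, 9.51, 6.44 and 13 CPM in non-cH (log2 fold change 3.46 ± 0.43, adjusted p = 0.00255). Unlike foxj1a and foxj1b, rfx4 was highest in cH library 3, and its cH libraries 1 and 2 were below 3 and 4. cfap100, an axonemal protein, had 2032 counts over the cH libraries, against 2 over non-cH, and the ratio was 1313 (95% interval from 363 to 10852). It passed the filter on low counts through cH. Of other axonemal genes cfap57 stood at 79.7, 82.8, 11.2 and 23.9 CPM in cH, against 4.31, 4.28, 6.42 and 1.07 CPM in non-cH. The dynein gene dnai1.2 stood at 78.9, 33.5, 2.35 and 10.7 CPM in cH, against 0.40004, 1.68, 1.001 and 1.07 CPM in non-cH. The calls rest on few libraries: that of foxj1a ended without cH library 1, 2 or 4 or non-cH library 2, 3 or 4 (highest adjusted p 0.115). That of cfap100 ended without non-cH library 2 or 4 (0.0527). Those of cfap57 and dnai1.2 ended without cH library 1 or any 1 non-cH library (0.0913 and 0.1). The list had 7 higher members with cH libraries 1 and 2 set aside and 14 with 3 and 4 set aside. Its median log2 fold change was 1.48 and 3.55 in these fits, with 85 members tested in each. foxj1a, cfap57 and dnai1.2 were not called with cH libraries 1 and 2 set aside (adjusted p = 0.0912, 0.107 and 0.141). Genes of intraflagellar transport and the basal body, which all cilia use, had 2 higher and 0 lower of 42 tested, with 50 members in all and a median log2 fold change of 0.28. The share called higher was 4.76%, against 5.06% of all genes tested. dync2h1, the motor of return transport, averaged 86.1 ± 40.8 CPM in cH and 19.4 ± 5.75 CPM in non-cH (log2 fold change 2.15 ± 0.46, adjusted p = 0.0183). ift140 averaged 36.8 ± 16 CPM in cH and 7.32 ± 2.53 CPM in non-cH (log2 fold change 2.33 ± 0.60, adjusted p = 0.0362). Both calls ended without any 1 of the non-cH libraries (highest adjusted p 0.0561 and 0.104), and that of ift140 also without cH library 1 or 4.

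Neuronal genes were low in cH cells. In the pan-neuronal list 27 of 29 members were tested, 2 higher and 13 lower in cH, with a median log2 fold change of -3.1. It took 0.201%, 0.337%, 0.142% and 0.217% of counts in the cH libraries, against 1.08% to 1.3% in non-cH. elavl3, an RNA binding protein of neurons, stood at 190.4, 359, 32.4 and 191 CPM in cH, against 2815, 3048, 2958 and 3382 CPM in non-cH (log2 fold change -3.98 ± 0.63, adjusted p = 0.00692). elavl4, its paralogue, stood at 97.5, 37.4, 41.6 and 46.6 CPM in cH, against 847, 701, 994 and 981 CPM in non-cH (log2 fold change -3.98 ± 0.36, adjusted p = 0.00104). stmn2a, a microtubule regulator of growing axons, stood at 14.4, 65.8, 16.7 and 38.2 CPM in cH, against 706, 712, 726 and 732 CPM in non-cH (log2 fold change -4.41 ± 0.52, adjusted p = 0.00233). No cH library reached the non-cH range of these genes, and cH library 2 was the highest cH library for elavl3 and stmn2a. snap25a, of the vesicle fusion machinery, stood at 143, 245, 25.9 and 28.9 CPM in cH, against 945, 742, 976 and 1129.5 CPM in non-cH (log2 fold change -3.1 ± 0.73, adjusted p = 0.0271), higher in cH libraries 1 and 2 than in 3 and 4. Its call ended without cH library 1 or any 1 non-cH library (highest adjusted p 0.067). The members called higher were the adhesion genes ncam1a and ncam1b, which glia also express, and ncam1b averaged 343 ± 79 CPM in cH and 76.1 ± 15.5 CPM in non-cH (log2 fold change 2.17 ± 0.25, adjusted p = 0.00183).

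Neurogenic and early neuronal factors were low too: 29 of 31 members were tested, 0 higher and 14 lower in cH, with a median log2 fold change of -3.23. They took 0.107%, 0.227%, 0.0622% and 0.123% of counts in the cH libraries, against 1.38% to 1.83% in non-cH. sox4a stood at 184, 287, 135 and 245 CPM in cH, against 1855, 2494, 2431 and 2466 CPM in non-cH (log2 fold change -3.44 ± 0.27, adjusted p = 0.000813). sox11b stood at 91.5, 113, 80.6 and 139.6 CPM in cH, against 649, 759, 748 and 1088 CPM in non-cH (log2 fold change -2.93 ± 0.26, adjusted p = 0.000981). Both encode factors of newly formed neurons. scrt1a, a repressor that appears as cells leave the progenitor state, had no count in cH, against 110.1, 96.1, 99.2 and 138 CPM in non-cH. It was lower by at least 5019-fold. All 3 genes were below non-cH in every cH library, the reverse of sox9a and msi1 among the radial glia genes. The other members called lower, named after their calls were seen, include neurod1, neurod4, insm1a, sox4b, sox11a, tbr1b and ebf3a.

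Proliferation genes had 1 higher and 2 lower of 52 tested, with 56 members in all and a median log2 fold change of -0.81. mki67, a marker of cycling cells, stood at 62.1, 38.4, 13.3 and 13.4 CPM in cH, against 171, 226, 141 and 208 CPM in non-cH (log2 fold change -2.55 ± 0.55, adjusted p = 0.0182). The cyclin gene ccna2 stood at 18.3, 21.2, 25.9 and 47.6 CPM in cH, against 74.5, 78.9, 84.2 and 66.7 CPM in non-cH (log2 fold change -1.43 ± 0.39, adjusted p = 0.0471). mcm3, of the replicative helicase, was called higher, at 175, 99, 186 and 172 CPM in cH, against 88.5, 81.7, 68.3 and 64.1 CPM in non-cH (log2 fold change 1.06 ± 0.26, adjusted p = 0.0313). pcna, the polymerase clamp, overlapped at 273, 273, 464 and 475 CPM in cH, against 346, 416, 369 and 327 CPM in non-cH (adjusted p = 0.976). Of the tested members of the list 1.92% were called higher and 3.85% lower, against 5.06% and 6.87% of all genes tested. The call of mki67 ended without non-cH library 2, 3 or 4 (highest adjusted p 0.0549). That of mcm3 ended without any 1 library other than cH 2 (0.102). That of ccna2 ended without any 1 library other than cH 4 (0.137). The counts of higher and lower proliferation genes were 6 and 7 with cH libraries 1 and 2 set aside and 0 and 13 with 3 and 4 set aside.

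In the synaptic vesicle and release list 66 of 79 members were tested, 2 higher and 19 lower in cH, with a median log2 fold change of -2.01. bsnb, a scaffold of the active zone, stood at 14.2, 35.5, 31.6 and 29.2 CPM in cH, against 348, 263, 314 and 345 CPM in non-cH (log2 fold change -3.52 ± 0.32, adjusted p = 0.00104). nrxn3a, a synaptic adhesion gene, averaged 40.4 ± 16.2 CPM in cH and 331 ± 93.3 CPM in non-cH (log2 fold change -3.04 ± 0.35, adjusted p = 0.00216). stxbp1a, which is needed for vesicle fusion, averaged 24.6 ± 14.9 CPM in cH and 356 ± 73.2 CPM in non-cH (log2 fold change -3.86 ± 0.47, adjusted p = 0.00255). The members called higher, named after their calls were seen, were syt11a and nlgn3a. The list had 3 higher and 36 lower with cH libraries 1 and 2 set aside, and 2 and 23 with libraries 3 and 4 set aside. Voltage-gated channels had 3 higher and 16 lower of 94 tested, with 145 members in all and a median log2 fold change of -1.28, and 9 of the lower members had no count in cH. kcnc3b, a potassium channel of fast-firing neurons, had no count in cH, against 34, 28.9, 45.8 and 50.7 CPM in non-cH. This was at least 1802-fold lower. kcna2b had 2 counts over cH, against 6959 over non-cH, lower by a ratio of 2692 (95% interval from 745 to 22232). cacna2d4b had 4 and 11590 counts (log2 fold change -11.17 ± 1.31). The higher channels, named after their calls were seen, were kcna4, kcnj1b and kcnj10a, the last an inward rectifier of astroglia. Channel counts were 4 and 29 with cH libraries 1 and 2 set aside and 2 and 21 with 3 and 4 set aside.

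Receptors of fast transmission were called in both directions, with 6 higher and 6 lower of 57 tested, with 67 members in all and a median log2 fold change of -1.34. gria4a, an AMPA receptor subunit, stood at 479, 354, 994 and 922 CPM in cH, against 23, 27.3, 42.2 and 34.7 CPM in non-cH (log2 fold change 4.43 ± 0.42, adjusted p = 0.00116). gria2b, another AMPA subunit, averaged 549 ± 101 CPM in cH and 176 ± 24.5 CPM in non-cH (log2 fold change 1.64 ± 0.20, adjusted p = 0.00234). Both were above non-cH in every cH library, and gria4a was highest in libraries 3 and 4. The metabotropic grm3, which astroglia express in mammals, was also called higher, and gria2a, gria3a and grin1a were called lower, named after their calls were seen. Of the 6 members called lower, 3 had no count in cH. Receptor calls in the lower direction were 18 with cH libraries 1 and 2 set aside and 11 with 3 and 4 set aside. Monoamine and muscarinic receptors had 0 higher and 8 lower of 32 tested, with 62 members in all and a median log2 fold change of -0.48, and all 8 lower members had no count in cH. Such members passed the filter on low counts through non-cH alone and could only be called lower. Of these, adra2da, adra1d and drd5a, which encode adrenergic and dopamine receptors, were at least 655-fold, 431-fold and 533-fold lower. The call of adra2da ended without non-cH library 4 (adjusted p 0.0505), that of drd5a without library 2 or 4 (highest 0.0527) and that of adra1d without library 2, 3 or 4 (highest 0.0527).

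Of transmitter genes, the GABA list had 3 higher and 1 lower of 14 tested, with 16 members in all and a median log2 fold change of 0.42. The list's median was -0.87 with cH libraries 1 and 2 set aside and 1.14 with 3 and 4 set aside. Its higher members were the uptake genes slc6a1b and slc6a11b, given with the transporters, and abat, the GABA transaminase of breakdown, at 227, 127, 147 and 148 CPM in cH, against 39.8, 22.2, 50.5 and 41.8 CPM in non-cH (log2 fold change 2.07 ± 0.33, adjusted p = 0.00694). gad2, of GABA synthesis, stood at 429, 842, 26.7 and 129 CPM in cH, against 185, 172, 222 and 277 CPM in non-cH, high in cH libraries 1 and 2 and low in 3 and 4 (adjusted p = 0.728). gad1b stood at 0, 0, 0.069 and 6.93 CPM in cH, against 177, 117, 184 and 180.02 CPM in non-cH (adjusted p = 0.0804), with 3 of 4 cH libraries at or near 0. The genes called higher were thus of uptake and breakdown, neither synthesis gene passed, and the call in the other direction was slc6a1a, a paralogue of slc6a1b named after its call was seen. The vesicular glutamate transporter slc17a6a had 2 counts over cH, against 20038 over non-cH, lower by a ratio of 7751 (95% interval from 2145 to 64007). slc17a6b stood at 27.8, 24.9, 0 and 10.6 CPM in cH, against 57.7, 64.8, 72.8 and 77.9 CPM in non-cH (adjusted p = 0.458). Their list had 0 higher and 1 lower of 6 tested, with 9 members in all and a median log2 fold change of -1.87. Acetylcholine and glycine genes had 1 higher and 3 lower of 6 tested, with 8 members in all and a median log2 fold change of -5.2, or -3.84 at the bounds, the higher member being slc6a9. The vesicular acetylcholine transporters slc18a3a and slc18a3b had no count in cH. They were at least 429-fold and 228-fold lower. They lost their calls without non-cH library 2, 3 or 4 (highest adjusted p 0.0527 and 0.0527).

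Feeding and neurosecretory peptides had 1 higher and 9 lower of 40 tested, with 74 members in all and a median log2 fold change of -2.12, and 7 of the lower members had no count in cH. npy, which promotes feeding, stood at 0, 0.0695, 0.069 and 0 CPM in cH, against 31.8, 39.5, 23.1 and 12.1 CPM in non-cH (log2 fold change -9.53 ± 1.55, adjusted p = 0.00775). uts1, a urotensin, had no count in cH, against 44.5, 26.3, 29.9 and 39 CPM in non-cH. The fall was at least 1583-fold. tac1, the tachykinin precursor, stood at 0.0613, 89.99, 3.002 and 7.66 CPM in cH, against 13.6, 16.1, 17.7 and 13.8 CPM in non-cH, and cH library 2 alone was above non-cH (adjusted p = 0.874). trh stood at 24.5, 0, 26.8 and 29.7 CPM in cH, against 7.6, 4.65, 7.36 and 8.34 CPM in non-cH, high in 3 cH libraries and at 0 in library 2 (adjusted p = 0.672). hcrt and pmch had no count in cH, and agrp had none in any of the 8 libraries. pomca was at 0, 0, 0 and 3.62 CPM in cH, against 2.38, 13.8, 0.827 and 2.69 CPM in non-cH. sst1.1 was at 0, 2.36, 0 and 1.33 CPM in cH, against 22, 19.7, 29.1 and 7.57 CPM in non-cH (adjusted p = 0.221). The peptide list took 0.0936%, 0.23%, 0.025% and 0.0329% of counts in the cH libraries, against 0.101% to 0.12% in non-cH. Its lower calls were 14 with cH libraries 1 and 2 set aside and 15 with 3 and 4 set aside. Receptors for energy and feeding signals had 0 higher and 4 lower of 27 tested, with 51 members in all and a median log2 fold change of -0.77. aplnrb, an apelin receptor that endothelial cells also express, had 8 counts over cH, against 14975 over non-cH (log2 fold change -10.32 ± 1.04, adjusted p = 0.00131). tacr3l, a tachykinin receptor, and npy8ar, a neuropeptide Y receptor, had no count in cH. They were at least 202-fold and 180.2-fold lower. They lost their calls without non-cH library 2, 3 or 4 (highest adjusted p 0.0532 and 0.0609).

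Genes of the growth hormone and IGF axis had 4 higher and 1 lower of 32 tested, with 39 members in all and a median log2 fold change of 0.20. igfbp3, an IGF binding protein, stood at 49.8, 165, 141 and 143 CPM in cH, against 15.4, 13.2, 30.8 and 22.9 CPM in non-cH (log2 fold change 2.6 ± 0.47, adjusted p = 0.0118). irs2b, an adaptor of insulin and IGF receptors, stood at 354, 598, 402 and 268 CPM in cH, against 201, 153, 134 and 120.3 CPM in non-cH (log2 fold change 1.42 ± 0.29, adjusted p = 0.0155). Both were above non-cH in every cH library, and igfbp3 was lowest in cH library 1. igf1 and igf2b were also called higher, named after their calls were seen. The call of irs2b ended without non-cH library 2, 3 or 4 (highest adjusted p 0.0542). The somatostatin gene sst1.2 had no count in cH, against 2.13, 0.384, 1.83 and 0.712 CPM in non-cH, a fall of at least 58.3-fold. It lost its call without the same libraries (0.0605). The counts of higher and lower genes were 2 and 1 with cH libraries 1 and 2 set aside and 5 and 3 with 3 and 4 set aside.

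Among factors of other brain regions, those of the telencephalon and of the midbrain, hindbrain and cerebellum that were called were mostly lower in cH, and no Hox gene was called. Telencephalic factors had 0 higher and 8 lower of 17 tested, with 22 members in all and a median log2 fold change of -6.1, or -6.05 at the bounds. They took 0.00624% to 0.0156% of cH counts and 0.136% to 0.156% of non-cH counts. Of the 8 members called lower, 5 had no count in cH. neurod2, of pallial neurons, had 6 counts in cH and averaged 0.0519 ± 0.0661 CPM in cH and 188 ± 24.7 CPM in non-cH (log2 fold change -11.87 ± 1.06, adjusted p = 0.00104). eomesb had no count in cH, against 113, 113, 50.002 and 119 CPM in non-cH. It was lower by at least 4475-fold. bcl11ba stood at 1.53, 0.0695, 0 and 19.3 CPM in cH, against 349.9, 270.3, 433 and 386 CPM in non-cH, below non-cH in every cH library, and did not pass (adjusted p = 0.0728). Midbrain, hindbrain and cerebellar factors had 1 higher and 13 lower of 42 tested, with 47 members in all and a median log2 fold change of -2.22. tfap2b had 8 counts in cH and stood at 0.0653 ± 0.0503 CPM in cH and 271 ± 28.7 CPM in non-cH (log2 fold change -12.03 ± 0.79, adjusted p = 0.000653). otx2, matched from the symbol otx2b, stood at 53.6, 72, 22.4 and 46.3 CPM in cH, against 316, 345, 363 and 382 CPM in non-cH (log2 fold change -2.86 ± 0.35, adjusted p = 0.00256). The midbrain and hindbrain engrailed genes en1b, en2a and en2b were also called lower, named after their calls were seen. zic1 overlapped, at 395, 372, 769 and 817 CPM in cH, against 754, 667, 863 and 1015 CPM in non-cH (adjusted p = 0.443). zic2a was lower (log2 fold change -1.19 ± 0.31, adjusted p = 0.0406), a call that ended without any 1 library other than cH 3 (highest adjusted p 0.116). Hox genes had 0 higher and 0 lower of 15 tested, with 49 members in all and a median log2 fold change of 0.11. hoxb3a, the most abundant, was at 27.5, 75.1, 7.04 and 18.3 CPM in cH, against 39.3, 45.1, 46 and 27.4 CPM in non-cH. hoxa4a was next, at 1.1, 46.9, 0 and 7.83 CPM in cH, against 12.8, 8.8, 5.92 and 5.97 CPM in non-cH. edgeR gave 0 members at an unadjusted p under 0.05 and DESeq2 called 0.

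Hypothalamic factors were called mostly in the lower direction too: 60 of 75 members were tested, 1 higher and 12 lower in cH, with a median log2 fold change of -1.34. bnc2 had 12 counts in cH and stood at 0.0774 ± 0.0705 CPM in cH and 136 ± 10.4 CPM in non-cH (log2 fold change -10.66 ± 0.89, adjusted p = 0.000893). uncx had no count in cH, against 41.2, 70.11, 44.2 and 49.2 CPM in non-cH. This was at least 2349-fold lower. uncx4.1 had 4 and 16624 counts (log2 fold change -11.67 ± 1.2, adjusted p = 0.00139). The member called higher, named after its call was seen, was nkx2.4a, a homeobox gene of the hypothalamus, at 79.1, 208, 119 and 70.12 CPM in cH, against 33.5, 21.6, 35.1 and 29.9 CPM in non-cH (log2 fold change 1.99 ± 0.41, adjusted p = 0.0163; the call ended without non-cH library 2, 3 or 4, highest adjusted p 0.0553). nkx2.4a was thus above non-cH in every cH library, while bnc2, uncx and uncx4.1 were at or near 0 in cH. nkx2.1, with the values given above, overlapped between the groups and was not called (adjusted p = 0.471). The list had 3 higher and 19 lower with cH libraries 1 and 2 set aside, and 4 and 21 with libraries 3 and 4 set aside. For mid and hindbrain factors the counts were 2 and 24 with cH libraries 1 and 2 set aside and 0 and 21 with 3 and 4 set aside. Nonvisual opsins had 0 higher and 2 lower of 12 tested, with 30 members in all and a median log2 fold change of 1.1. With cH libraries 1 and 2 set aside 18 were tested and the median was -4.58. With 3 and 4 set aside 18 were tested and it was -5.2. opn3 and tmtops3a had no count in cH and were at least 713-fold and 667-fold lower, and the call of opn3 ended without non-cH library 2 (0.0526).

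**Figure D4:**
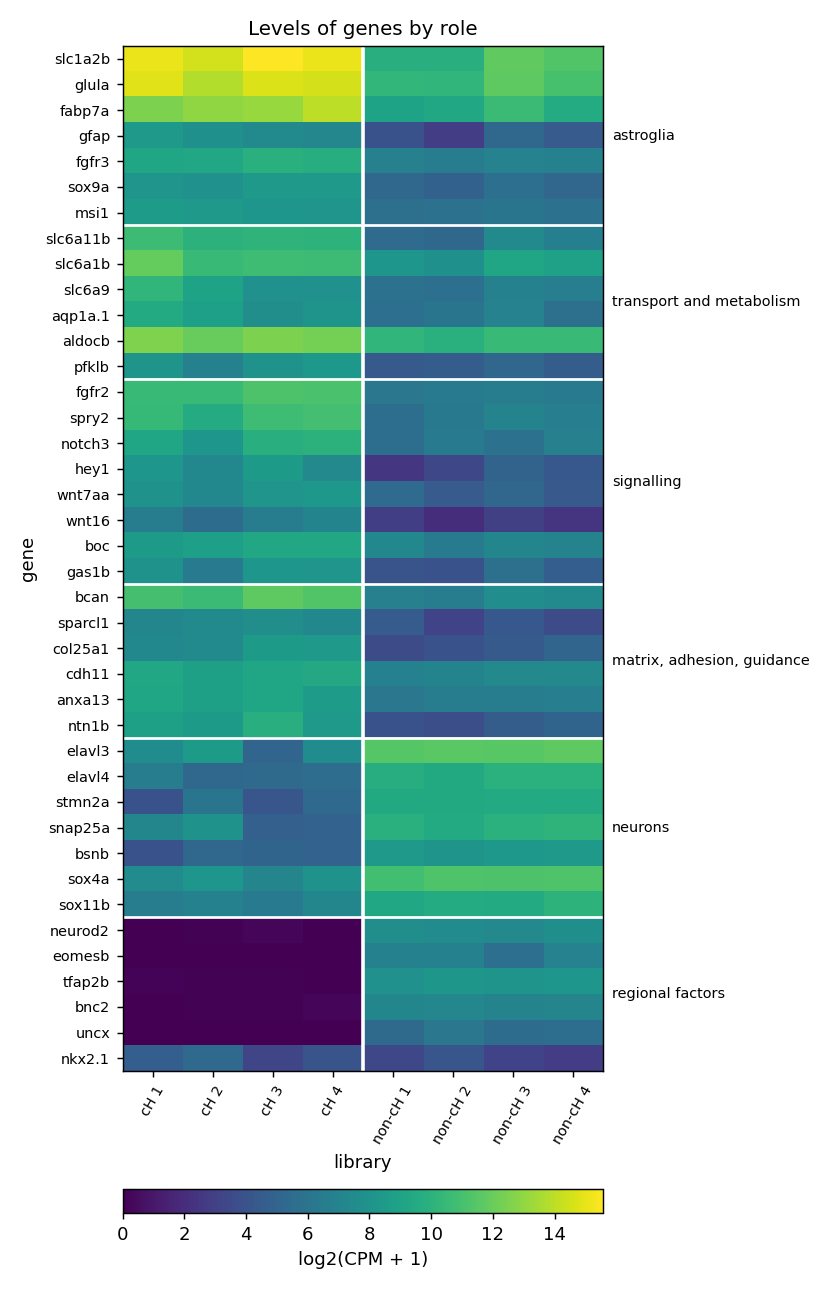
Levels of genes picked from those given in the text, grouped by role in the 8 libraries, as colour on a scale of log2(CPM + 1), with cH libraries to the left of the white line. The astroglial, transport, signalling and matrix genes drawn, which do not stand for their whole lists, are higher in cH, the neuronal genes drawn are lower there, and regional factors such as neurod2, eomesb and tfap2b lie at or near 0 in cH.

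Markers of other cell types were followed to see which of them moved with the sort; their part in the results above was not tested. Erythrocyte genes had 1 higher and 14 lower of 15 tested, with 22 members in all and a median log2 fold change of -9.6, or -8.75 at the bounds, with 9 of the lower members at 0 in cH. They took 0.0855% to 0.0897% of cH counts and 0.162% to 0.373% of non-cH counts, and the cH share was nearly all cahz. The globin gene ba1 stood at 0.0613, 2.09, 0 and 2.91 CPM in cH, against 919.7, 1447, 519 and 554 CPM in non-cH (log2 fold change -9.39 ± 1.58, adjusted p = 0.00896). hbaa1 had 52 counts over cH, against 53709 over non-cH (log2 fold change -9.89 ± 1.35, adjusted p = 0.004). Globin RNA was thus close to absent from cH and present in every non-cH library. Microglia and macrophage genes had 1 higher and 5 lower of 22 tested, with 32 members in all and a median log2 fold change of -1.54. They took 0.052% to 0.168% of cH counts and 0.27% to 0.38% of non-cH counts. apoeb was at 45.9, 491, 404 and 418 CPM in cH, against 817, 1010.0, 622 and 626 CPM in non-cH, with no overlap, but did not pass (adjusted p = 0.319). lgals3bpb was lower (log2 fold change -2.06 ± 0.44, adjusted p = 0.0187), a call that ended without non-cH library 2, 3 or 4 (highest adjusted p 0.054). mrc1a, a mannose receptor of macrophages, was at 0 in cH and at least 3289.7-fold lower. hexb, a lysosomal enzyme, was called higher, at 386 ± 107 CPM in cH and 70.5 ± 18.3 CPM in non-cH (log2 fold change 2.45 ± 0.30, adjusted p = 0.00261). Lymphoid and granulocyte genes had 0 higher and 2 lower of 4 tested, with 18 members in all and a median log2 fold change of -7.76, or -6.37 at the bounds. ikzf1 and cpa5 had no count in cH. They were at least 605-fold and 988-fold lower. They lost their calls without non-cH library 2 (adjusted p 0.0501 and 0.0526). The protease gene mmp9 was at 73.9, 0.0695, 0 and 0 CPM in cH, against 4.18, 5.67, 0.0218 and 3.43 CPM in non-cH (adjusted p = 0.718).

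Oligodendrocyte genes had 0 higher and 1 lower of 20 tested, with 22 members in all and a median log2 fold change of -1.31. They took 0.597%, 0.0837%, 0.578% and 0.921% of counts in the cH libraries, against 1.03% to 2.08% in non-cH. cnp, a myelin enzyme, stood at 111, 115, 74.7 and 74.7 CPM in cH, against 581, 750.5, 563 and 654 CPM in non-cH (log2 fold change -2.76 ± 0.23, adjusted p = 0.000813). plp1b, a major myelin protein, stood at 2869, 112, 2336 and 3753 CPM in cH, against 7273, 6167, 8137 and 4009 CPM in non-cH (adjusted p = 0.348). The share of the list and plp1b were thus lowest in cH library 2, while cnp was not. cd59, a membrane protein of the list, stood at 775, 40.9, 1038 and 1819.9 CPM in cH, against 3694, 3171, 4098 and 1192 CPM in non-cH (adjusted p = 0.321). The list had 5 lower members with cH libraries 1 and 2 set aside and 6 with 3 and 4 set aside. With all 8 libraries 5% of its tested members were called lower, against 6.87% of all genes tested. Endothelial and mural genes had 2 higher and 6 lower of 29 tested, with 35 members in all and a median log2 fold change of -1.9. They took 0.0817% to 0.121% of cH counts and 0.0358% to 0.0579% of non-cH counts. Most of the cH share was notch3 and rgs5a, which averaged 691 and 152 CPM in cH. The higher members were notch3 and rgs5a, a pericyte marker at 189, 256, 84.8 and 79 CPM in cH, against 7.2, 14.4, 18.3 and 3.51 CPM in non-cH (log2 fold change 3.81 ± 0.66, adjusted p = 0.0101), while the endothelial genes kdrl, flt4, egfl7, cldn5b and sox7 were called lower. sox7 had no count in cH, against 23, 32.7, 18.9 and 15.7 CPM in non-cH. The fall was at least 1046-fold. notch3, also a member of the Notch list, and rgs5a were thus called in the direction opposite to these endothelial genes. Of the 6 members called lower, 5 had no count in cH and could only be called lower. Of the 29 tested members of the list, 7 had a positive log2 fold change. The lower calls were 9 with cH libraries 1 and 2 set aside and 13 with 3 and 4 set aside.

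Meningeal fibroblast genes had 1 higher and 3 lower of 11 tested, with 21 members in all and a median log2 fold change of -1.26. They took 0.0364% to 0.0679% of cH counts and 0.0368% to 0.207% of non-cH counts. dcn, the proteoglycan decorin, was called higher, at 551, 235, 352 and 409.5 CPM in cH, against 46.2, 113, 86 and 66 CPM in non-cH (log2 fold change 2.32 ± 0.36, adjusted p = 0.00656), against col1a2 in the other direction (log2 fold change -12.66 ± 1.9, adjusted p = 0.0057). Choroid plexus genes had 1 higher and 2 lower of 6 tested, with 10 members in all and a median log2 fold change of 0.75: aqp1a.1 was higher, otx2 was lower, and the sulfate transporter slc13a4 had 1 count over cH, against 3352 over non-cH, lower by a ratio of 2593 (95% interval from 465 to 102460.0). The pituitary list had 0 higher and 0 lower of 1 tested, with 16 members in all and a median log2 fold change of -2.43. They took 0% to 0.000853% of cH counts and 0.000313% to 0.00244% of non-cH counts. lhx4 had no count in cH and was seen in non-cH libraries 2 and 3. The photoreceptor list had 0 higher and 0 lower of 2 tested, with 34 members in all and a median log2 fold change of -2.23. exorh, a pineal opsin, was at 0, 3.76, 8.97 and 0 CPM in cH, against 0.133, 94.1, 6.05 and 0 CPM in non-cH, and saga at 0 in all libraries but non-cH library 2 at 31.1 CPM. In both lists edgeR gave 0 members at an unadjusted p under 0.05 and DESeq2 called 0. Skin and other epithelia had 1 higher and 1 lower of 10 tested, with 34 members in all and a median log2 fold change of -0.48, and the keratin gene krt8 was at 57.5, 21.1, 2.48 and 24 CPM in cH, against 74.3, 102, 20.4 and 11.6 CPM in non-cH (adjusted p = 0.676). The transglutaminase gene tgm1l3 had 2513 counts over cH, against 2 over non-cH, higher by a ratio of 1624 (95% interval from 449 to 13419). krt91 had no count in cH and was at least 683-fold lower, a call that ended without any 1 of the non-cH libraries (highest adjusted p 0.0809).

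Among general cell functions, cytosolic ribosomal protein genes had 0 higher and 8 lower of 78 tested, with 86 members in all and a median log2 fold change of -0.60. They took 0.351%, 0.636%, 0.373% and 0.644% of counts in the cH libraries, against 0.831% to 1.33% in non-cH. rplp0 stood at 106, 153, 125 and 140.1 CPM in cH, against 474, 623, 430.4 and 345 CPM in non-cH (log2 fold change -1.84 ± 0.23, adjusted p = 0.00266). rpl3 averaged 772 ± 127 CPM in cH and 1728 ± 159 CPM in non-cH (log2 fold change -1.16 ± 0.17, adjusted p = 0.00458). rpl4 averaged 445 ± 38.7 CPM in cH and 982 ± 172 CPM in non-cH (log2 fold change -1.14 ± 0.17, adjusted p = 0.00543). Every cH library was below every non-cH library for these genes, and the lower calls were 5 with cH libraries 1 and 2 set aside. Heat shock and stress genes had 4 higher and 4 lower of 41 tested, with 44 members in all and a median log2 fold change of 0.30. They took 1.76%, 1.92%, 0.799% and 0.896% of counts in the cH libraries, against 0.803% to 1.79% in non-cH, with the split by library number in both groups described above. gadd45ba, induced by DNA damage and other stress, averaged 1758 ± 124 CPM in cH and 515 ± 166 CPM in non-cH (log2 fold change 1.77 ± 0.25, adjusted p = 0.00438). ddit3, of the unfolded protein response, averaged 205 ± 11.3 CPM in cH and 522 ± 162 CPM in non-cH (log2 fold change -1.35 ± 0.25, adjusted p = 0.0129). A member matched through a synonym, si:dkey-4p15.3, averaged 465 ± 106 CPM in cH and 172 ± 46.4 CPM in non-cH (log2 fold change 1.44 ± 0.26, adjusted p = 0.0119). Lower calls of stress genes were 7 with cH libraries 1 and 2 set aside and 5 with 3 and 4 set aside.

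Immediate early genes, which dissociation of tissue can induce, had 5 higher and 2 lower of 33 tested, with 35 members in all and a median log2 fold change of 0.31. They took 2.13%, 2.64%, 1.06% and 1.33% of counts in cH libraries 1 to 4, against 1.39%, 1.59%, 0.798% and 0.813% in non-cH. Here too libraries numbered 1 and 2 were the higher ones in both groups, and the part of this in these calls was not tested. zfp36l1a, which speeds decay of messenger RNA, stood at 934, 1057, 1218 and 1612 CPM in cH, against 326, 418, 269 and 225 CPM in non-cH (log2 fold change 1.96 ± 0.26, adjusted p = 0.00338). btg2, an antiproliferative gene, averaged 1450.4 ± 284 CPM in cH and 569.5 ± 189 CPM in non-cH (log2 fold change 1.35 ± 0.26, adjusted p = 0.0131). egr4, a factor induced by neuronal activity, averaged 298 ± 106 CPM in cH and 872 ± 68.1 CPM in non-cH (log2 fold change -1.55 ± 0.26, adjusted p = 0.00901). The call of btg2 ended without non-cH library 3 or 4 (highest adjusted p 0.0527). In this list 22 of its 35 members had both cH libraries 1 and 2 above both 3 and 4, and 2 the reverse. Over all 17228 genes tested the counts were 2277 and 4393. Lower calls of immediate early genes were 6 with cH libraries 1 and 2 set aside. Cyclic nucleotide and calcium signalling enzymes had 4 higher and 12 lower of 89 tested, with 114 members in all and a median log2 fold change of -0.64. calm2b, a calmodulin gene, averaged 245 ± 21.6 CPM in cH and 935 ± 191 CPM in non-cH (log2 fold change -1.93 ± 0.19, adjusted p = 0.00123). calm3b, another, averaged 586 ± 90.1 CPM in cH and 1766 ± 161 CPM in non-cH (log2 fold change -1.59 ± 0.16, adjusted p = 0.00129). prkca, a protein kinase C, averaged 114 ± 22.5 CPM in cH and 17.8 ± 7.64 CPM in non-cH (log2 fold change 2.68 ± 0.40, adjusted p = 0.00502). The lower calls of that list were 22 with cH libraries 1 and 2 set aside and 15 with 3 and 4 set aside. Interferon, complement and antigen presentation genes had 2 higher and 3 lower of 21 tested, with 39 members in all and a median log2 fold change of -0.53. mhc1zba, an MHC class I gene, averaged 313 ± 107 CPM in cH and 121 ± 17.7 CPM in non-cH (log2 fold change 1.38 ± 0.28, adjusted p = 0.0153). stat3, a signal transducer of cytokines, averaged 98.9 ± 33.7 CPM in cH and 36.4 ± 6.69 CPM in non-cH (log2 fold change 1.44 ± 0.35, adjusted p = 0.0293). psmb9a, of the immunoproteasome, had no count in cH and was at least 255-fold lower. The calls of mhc1zba and psmb9a ended without non-cH library 2, 3 or 4 (highest adjusted p 0.0539 and 0.0547), and that of stat3 without any 1 library other than cH 2 (0.0906).

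The largest rises in cH with at least 10 CPM and no overlap were in part of genes that non-cH nearly lacked. kif13bb, a kinesin, stood at 72.1, 3.62, 0.69 and 2.1 CPM in cH, against 0, 0, 0 and 0 CPM in non-cH. It was at least 1109-fold higher, but its level rests on cH library 1. tspan12, a tetraspanin of Wnt and Norrin signalling, stood at 23.6, 1.6, 14.3 and 16.5 CPM in cH, against 0, 0, 0 and 0 CPM in non-cH. It was at least 861-fold higher, and its adjusted p was 0.0576 with cH libraries 3 and 4 set aside. myo18aa, an unconventional myosin, stood at 358, 652, 941 and 831 CPM in cH, against 6.58, 0.213, 5.27 and 13.4 CPM in non-cH (log2 fold change 6.77 ± 1.1, adjusted p = 0.00791). adamtsl7, of a family of matrix proteins, stood at 251, 140.4, 464 and 293 CPM in cH, against 0.0444, 1.92, 7.84 and 4.22 CPM in non-cH (log2 fold change 6.36 ± 1.25, adjusted p = 0.014). Of the 4 genes, the last 2 were high in every cH library. svep1, a large matrix protein, stood at 129, 133, 450.1 and 768 CPM in cH, against 3.11, 7.89, 5.75 and 3.84 CPM in non-cH (log2 fold change 6.17 ± 0.76, adjusted p = 0.00273). ch25hl2, of the cholesterol 25-hydroxylase family, stood at 229, 103, 827 and 1493 CPM in cH, against 6.76, 7.97, 15 and 2.62 CPM in non-cH (log2 fold change 6.36 ± 1.03, adjusted p = 0.00754). Both were higher in cH libraries 3 and 4 than in 1 and 2. The other genes that met the rule were efcab6, zbbx and cdc42ep1b, with log2 fold changes of 8.49, 6.06 and 5.96, besides tgm1l3, cfap100 and gdf10b given above. The call of kif13bb ended without any 1 library other than cH 1 (highest adjusted p 0.093). That of adamtsl7 ended without non-cH library 2 or 4 (0.053), and that of zbbx without non-cH 2, 3 or 4 (0.106). That of cdc42ep1b ended without cH 3 or 4 or non-cH 2, 3 or 4 (0.105), and that of efcab6 without cH 1 or 4 or non-cH 1, 3 or 4 (0.0882).

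The largest falls by the same rule, ranked by fitted log2 fold change, were of genes without a count in cH, whose fitted values depend on the prior count. At the lower bounds this order does not hold: the bound was 1630.3-fold for mpp3b, while slc4a1a and slc17a6a, with 2 counts each in cH, were lower by ratios of 9372 (95% interval from 2594 to 77396) and 7751 (95% interval from 2145 to 64007). Besides scrt1a, eomesb, gata2a, uncx, kcnc3b, frzb and mrc1a, given above, they were golga7bb, gfra2b and mpp3b. golga7bb was at 0 in cH, against 107, 64.8, 84.3 and 90.5 CPM in non-cH. gfra2b, a receptor of GDNF-family ligands, was at 0 in cH, against 49, 31.1, 55.2 and 49 CPM in non-cH. mpp3b, a membrane scaffold, was at 0 in cH, against 17.6, 33.2, 30.6 and 65.3 CPM in non-cH. They were at least 3938-fold, 2096-fold and 1630.3-fold lower.

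Genes called between the groups could still differ between the pairs of cH libraries, and those with the widest gap are described here without a test. Of genes called higher, baiap3, which acts in dense-core vesicle recycling, stood at 590.5, 738, 88.4 and 104 CPM in cH, against 25.8, 18.2, 38.6 and 32.5 CPM in non-cH (log2 fold change 3.73 ± 0.76, adjusted p = 0.0158). aoc1, an amine oxidase, stood at 220.2, 268, 31 and 44.4 CPM in cH, against 12.6, 14.8, 7.23 and 5.59 CPM in non-cH (log2 fold change 3.81 ± 0.80, adjusted p = 0.0174). With tph1a, cfap57 and dnai1.2, given above, they were the 5 with the largest excess of cH libraries 1 and 2. The reverse was widest for svep1 and ch25hl2, given above, and for fam69ab, slitrk2 and psd2. fam69ab was at 25.7, 22.8, 97.6 and 102 CPM in cH, against 6.04, 4.95, 3.9 and 7.29 CPM in non-cH. slitrk2, a synaptic adhesion gene, was at 169.5, 47.7, 627 and 701 CPM in cH, against 51.1, 25.7, 73.5 and 56.4 CPM in non-cH. psd2 was at 122, 111, 445 and 580.1 CPM in cH, against 72.8, 54.5, 84.6 and 88.3 CPM in non-cH. Of the first 5 genes, tph1a acts in serotonin synthesis, aoc1 on amines, baiap3 on vesicles and cfap57 and dnai1.2 in cilia. The groups overlapped for slitrk2. The calls of baiap3, aoc1 and fam69ab ended without non-cH library 2, 3 or 4 (highest adjusted p 0.0556, 0.0598 and 0.0526), and those of slitrk2 and psd2 without cH library 3 or 4 or any 1 non-cH library (0.14 and 0.144).

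Of genes called lower, the excess of cH libraries 1 and 2 over 3 and 4 was widest for snap25a, given above, and for syn2a, atp2b3a, fam49al and atl1. syn2a, a synapsin gene, was at 40.03, 81.1, 6.69 and 11.2 CPM in cH, against 267, 238, 226 and 341 CPM in non-cH. atp2b3a, a calcium pump gene, was at 76.5, 95.6, 12.7 and 18.6 CPM in cH, against 306, 247, 344 and 354 CPM in non-cH. fam49al was at 125, 126, 21.5 and 25.1 CPM in cH, against 324, 345, 346 and 410.1 CPM in non-cH. atl1, an atlastin gene, was at 31.8, 34.2, 9.66 and 9.82 CPM in cH, against 124, 111, 113 and 105 CPM in non-cH. The reverse was widest for tubb2b, tgif1, mex3b, rab41 and prkx. tubb2b, a tubulin gene, was at 295, 355, 716 and 867 CPM in cH, against 2244, 2446, 2642 and 2912 CPM in non-cH. tgif1, a homeobox gene, was at 11, 12.1, 53.8 and 52.9 CPM in cH, against 177, 167, 123 and 199 CPM in non-cH. mex3b was at 8.96, 47.9, 96.5 and 107 CPM in cH, against 388, 416, 443 and 507 CPM in non-cH. rab41 was at 6.72, 6.82, 23.7 and 23.8 CPM in cH, against 58.9, 59, 60.4 and 78.4 CPM in non-cH. prkx was at 16.4, 15.4, 40.6 and 48.8 CPM in cH, against 112, 130.2, 107 and 129 CPM in non-cH. In all 10 genes each cH library stayed below each non-cH library, as in 1183 of all 1184 genes called lower. The call of tubb2b held without any 1 library. Those of snap25a, given above, and of the other 8 ended without each of non-cH libraries 2, 3 and 4, with highest adjusted p of 0.0886 for syn2a, 0.0767 for atp2b3a, 0.112 for fam49al, 0.0528 for atl1, 0.0889 for tgif1, 0.0679 for mex3b, 0.136 for rab41 and 0.0626 for prkx.

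**Figure D5:**
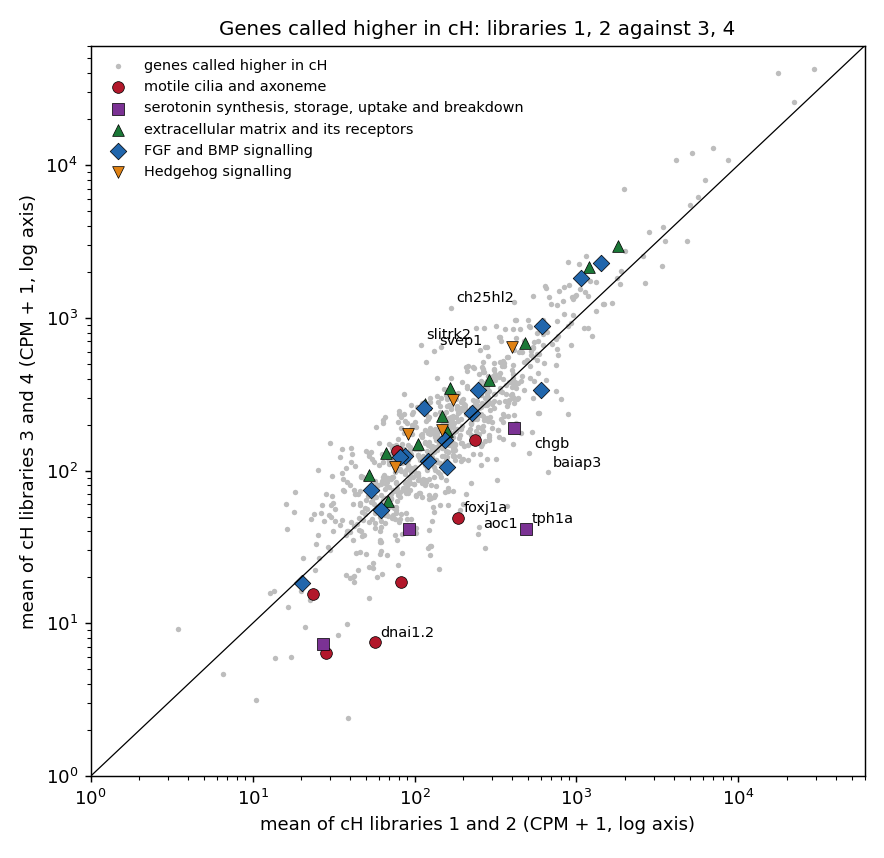
Mean of cH libraries 1 and 2 against mean of cH libraries 3 and 4 (CPM + 1, both axes log) for the 871 genes called higher in cH, with a line of equal values and 5 gene lists coloured. The 4 called serotonin genes and 6 of the 7 called cilia genes lie to the right of the line, and the 5 called Hedgehog genes above it.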

How the data were processed

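The data are bulk RNA-seq read counts of sorted brain cells. Per the labels' protocols, brains were dissociated with papain, cells were sorted by flow cytometry, RNA was extracted with a PicoPure kit, amplified from polyA RNA by a SMART-seq v2 protocol and tagmented with Nextera XT. The authors deposited raw read counts per annotation row; STAR, FastQC and the GRCz11 build are named, without versions, in the submitters' processing notes. The counter, its handling of reads that map to several places and its use of strand are not given in the sources used here, so near-identical paralogues and antisense neighbours may share counts. Many low counts are even, so both reads of a pair may have been counted, which would make counting intervals too narrow and lower bounds too high.

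Of 47038 rows, 9670 transfer RNA rows (0.0206% to 0.102% of counts) and 9 rows that name no gene or hold no count were left out. The endings _1 and _2 of symbols were stripped and the rows of a symbol summed, giving 30482 symbols, 5880 of them from several rows. edgeR 4.0.16 (R 4.3.3) fitted the 8 cH and non-cH libraries with TMM factors, filterByExpr defaults (minimum count 10, minimum total 15), 2 group means, robust quasi-likelihood estimation and two-sided tests with Benjamini-Hochberg adjustment. Genes high in 1 group alone pass that filter through that group, so list counts and medians describe the members that passed. Levels are CPM of the scaled library and are compared between groups, not between genes of different length. Floors of 3 counts and 95% exact binomial intervals cover counting error only, since PCR reads are not independent molecules. Alternatives were RLE factors, DESeq2 1.42.0, no filter, rows as deposited, all 16 libraries, a replicate block, either pair of cH libraries set aside, and each library left out.

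The 53 gene lists hold 1490 written symbols besides members found by name pattern, of which 1433 were found, 36 by a synonym that RefSeq lists for another assembly, with no coordinates taken from it. The members and lists were chosen with earlier results of these data known, and name patterns were corrected after the data were seen. Genes named with values met a rule: the 12 largest rises and 10 largest falls past the threshold with no overlap, a mean of 10 CPM or more where higher, and a symbol in established use; of each list the 3 called members with the smallest p (2 for regions and cell types, with the 2 most abundant members); a set of marker genes whatever their result; and the genes with the widest gap between the pairs of cH libraries. 3 genes that met it are not reported here. Others are said to be chosen after their values or calls were seen. The fit was tested on simulated data. A gene that did not pass is not shown to be alike in the groups.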

Additional observations from a re-analysis of the deposited data

Results flagged for a closer look

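In 36 groups of 4 libraries the highest or lowest library stood far from the other 3, by Dixon's test at the 95% level. Chance flags about 1 in 20 groups, and both groups of each named gene with a library at 10 CPM or more and of each list were examined. As 205 genes were named and there were 53 lists, many of these flags can be due to chance. In cH, library 1 was the high one for kif13bb (72.1 CPM), elavl4 (97.5 CPM), slc6a1b (3797 CPM) and mmp9 (73.9 CPM). Library 2 was the high one for hoxa4a (46.9 CPM), tph1b (24.6 CPM), hdc (12.2 CPM), tac1 (89.99 CPM) and dio3b (51.7 CPM) and for the share of synaptic genes (0.468% of counts), and the low one for mcm3 (98.96 CPM) and hexb (226 CPM). Library 3 was high for otpa (15.7 CPM) and library 4 for bcl11ba (19.3 CPM).

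In non-cH, library 1 was the high one for th2 (14.3 CPM), tmtops3a (27.5 CPM), ddc (13.2 CPM) and rx3 (14.96 CPM) and for mt-rnr2 (9.72% of counts), and the low one for sox4a (1855 CPM), calm3b (1525 CPM) and the share of genes of neurons contacting the cerebrospinal fluid (0.0637%). Library 2 was high for col1a2 (988 CPM), pomca (13.8 CPM), exorh (94.1 CPM) and saga (31.1 CPM) and for the shares of microglia (0.38%), meningeal (0.207%) and photoreceptor genes (0.0236%), and low for gad1b (116.5 CPM). Library 3 was low for eomesb (50.002 CPM), frzb (26.1 CPM) and slc4a1a (108 CPM). Library 4 was high for gata2a (76.7 CPM), rab41 (78.4 CPM) and hypothalamic factors (0.694%).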

How the results depend on the processing

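All 164 called named genes kept their direction in every alternative that gave them an adjusted p. DESeq2 gave none for kif13bb and col1a2. Of those not called, hoxb3a, hoxa4a, mmp9, exorh, tph1b, gad2, tac1, pcna and dio3b changed sign when some library or pair was left out. Of genes called, the total of 2055 (871 higher, 1184 lower) was 2054 with RLE factors, 1654 with no filter and 2160 with rows as deposited. It was 3638 with DESeq2 (1717 higher, 1921 lower), 4140 with all 16 libraries in the model (1426 and 2714), 3717 with cH libraries 1 and 2 set aside (1502 and 2215) and 3613 with 3 and 4 set aside (844 and 2769). With 1 library left out it ran from 770 to 2684, with 442 to 1135 genes higher and 328 to 1549 lower; it was lowest without non-cH library 4, 2 or 3. The cause of these shifts was not tested.

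Samples of the same number were treated as unpaired. Their deviations from the group means correlated at 0.0435, 0.0119, 0.0454 and 0.00757. Each sample of cH correlated best with its own number except cH libraries 2 and 4. These values cannot tell whether libraries of the same number came from the same brains. The shares of stress and immediate early genes split by library number in both groups. With a replicate block 489 genes were called, 330 higher and 159 lower, and 83 of the 164 called named genes passed. Of those 164, 162 passed with DESeq2, which gave kif13bb and col1a2 no adjusted p. With all 16 libraries 162 passed, with cH libraries 1 and 2 set aside 156 and with 3 and 4 set aside 150. Of the 164, 58 failed without some single library. The spread between libraries was wide (common dispersion 1.375), and libraries held at least 26.8 M counts (M, 1e+06).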
